A study of Mus musculus with 183 samples.

Results

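The mRNAs described here were chosen for a high AVEN crosslinking ratio after those with the very highest SKIV2L ratio had been set aside. CRAC maps RNA fragments that UV light crosslinks to a tagged protein, and the authors' deposited table gives, for 7240 mRNAs of mouse embryonic stem cells (mESCs), the relative binding of SKIV2L, XRN1 and MTR4. These values are ratios that sum to 1 for each mRNA. The AVEN column is set on the same scale but lies outside that sum, so that it can exceed 1, and how its counts were scaled is not given in the sources used here. Of the 6344 mRNAs whose median RPKM in the tagged lines reached 5, called expressed mRNAs here, 6296 had a symbol that did not start with Hist. The 200 with the largest SKIV2L ratio were removed, and the 200 of the remaining 6096 with the largest AVEN ratio were kept as members. The ratios come from pooled libraries, so no error can be attached to them, and as they chose the members they are given only as a description.

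Decay of these mRNAs was followed in 47 RNA-seq libraries from 2 clones. Clone 5F carries the Skiv2l fl/fl allele and Rosa26 Cre-ERT2/-. Clone 7E is Aven-/- with 3xFLAG-Avi-tagged Skiv2l and, by its labels, Rosa26 Cre-ERT2/BirA-V6 (BirA-V5 in the methods), and its floxed Skiv2l allele is named in the methods and in labels of other libraries of this clone, but not in those of the decay libraries. 4OHT activates Cre-ERT2, which in floxed cells removes exons of Skiv2l. Each clone was sampled without 4OHT (day 0) and after 4 days of 0.1 µM 4OHT (day 4), as mock-treated cells in DMSO and after 120, 240 or 360 min of actinomycin D, which blocks transcription. There were 3 libraries per group, except for 2 of clone 5F at day 0 and 120 min. The replicates are described as technical, and each genotype is 1 clone, so that p-values measure the spread between these libraries, and genotype, clone and tag cannot be told apart.

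AVEN is an RNA-binding protein with a stretch rich in arginine and glycine, and it associates with FOCAD and with the Ski complex. SKIV2L is the helicase of the Ski complex, which feeds mRNAs into the cytoplasmic exosome for decay from the 3′ end, mostly where translation has gone wrong. XRN1 degrades decapped mRNAs from the 5′ end, and MTR4 is the helicase of the nuclear exosome. AVEN has been tied to G-quadruplexes, stacked structures that can form where several short runs of guanine lie close together.

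The AVEN ratio of the members ran from 0.706 to 2.54, with a median of 0.812, and 34 members had a ratio above 1. The other 5896 mRNAs they were chosen from had a median of 0.295. The highest ratio, 2.54, belonged to Lama1 (chromosome 17, 67697259 to 67822647, GRCm38), which encodes the laminin α1 chain of basement membranes. Rex1bd followed with 2.15. Next came Cox11 with 1.89, a copper chaperone for cytochrome c oxidase, and Mrps11 with 1.82, a protein of the small mitochondrial ribosomal subunit. Rhno1, which acts in the replication checkpoint, had 1.62, and Nme1, a nucleoside diphosphate kinase, had 1.54. The giant scaffold protein gene Ahnak had 1.52. Upf3a, a factor of nonsense-mediated decay, had 1.38. Serpinh1, the collagen chaperone HSP47, had 1.33, and Pofut2, which adds fucose to secreted proteins, had 1.30. Just inside the threshold lay Pank4 (0.7078), Wwp1 (0.7077) and Clasrp (0.7061), and just outside it Eif4g2 (0.7055) and Manf (0.7055), so the list has no natural edge. Of the removed mRNAs, 8 had an AVEN ratio at or above the lowest of the members.

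**Figure D1:**
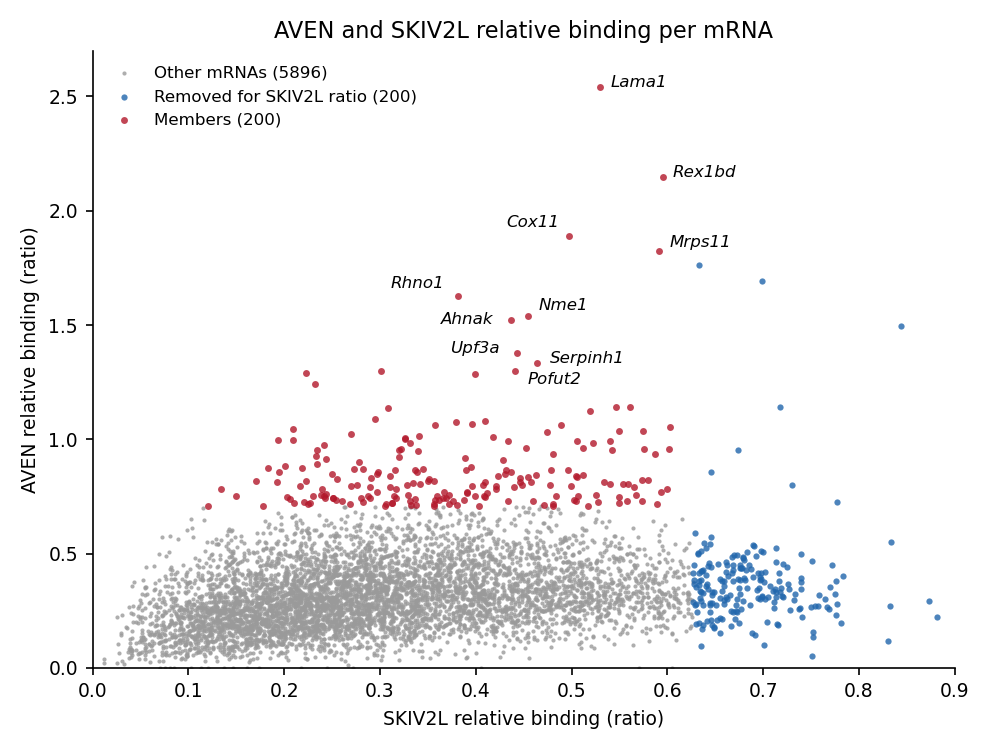
Relative binding of AVEN (y axis, ratio) against that of SKIV2L (x axis, ratio), with 1 point for each expressed mRNA of the authors' deposited table whose symbol does not start with Hist. The 200 members (red) lie above 0.706 on the AVEN axis and left of 0.627 on the SKIV2L axis, which are the thresholds of the choice, and the 10 members with the highest AVEN ratio are named.

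Within the members the SKIV2L ratio ran from 0.120 to 0.603, with a median of 0.371, beside 0.277 for the other mRNAs. Removal of the mRNAs from 0.627 upward therefore left members with ordinary as well as fairly high SKIV2L values. SKIV2L had the largest of the 3 ratios that sum to 1 in 89 members (44.5%), XRN1 in 62 (31.0%) and MTR4 in 49 (24.5%). Among the other mRNAs these shares were 26.5%, 41.3% and 32.3%. Dcaf6, a ubiquitin ligase adaptor, is an example with a leading MTR4 ratio (0.645, AVEN 0.893). Rapgef3, an exchange factor for Rap GTPases that is switched by cAMP, had a leading XRN1 ratio (0.542, AVEN 0.881). Because the AVEN ratio is divided by the total over SKIV2L, XRN1 and MTR4, a low total raises it as much as a high AVEN count does.

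Lengths of transcript regions come from the deposited table, and sequences were matched for 188 of the 200 members in Gencode M21, a later release than the M16 used by the authors. The members had a median coding sequence (CDS) of 1626 nt, beside 1440 nt for the other mRNAs, and a median 3′ UTR of 638 nt beside 983 nt. Their median 5′ UTR measured 140 nt, beside 165 nt. The median GC content of the members was 68.8% in the 5′ UTR, 55.0% in the CDS and 46.1% in the 3′ UTR, beside 66.1%, 52.1% and 44.0% for the other mRNAs. The removed mRNAs lay on the other side in GC content, with medians of 61.2%, 51.1% and 42.1%, and in CDS, with a median of 826 nt. Their UTRs were shorter still than those of the members, with medians of 117 nt (5′) and 279 nt (3′). Members were not highly expressed, with a median RPKM of 20.6 beside 24.7 for the other mRNAs and 95.8 for the removed ones. The quartiles of members and other mRNAs overlapped for every one of these features.

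**Figure D2:**
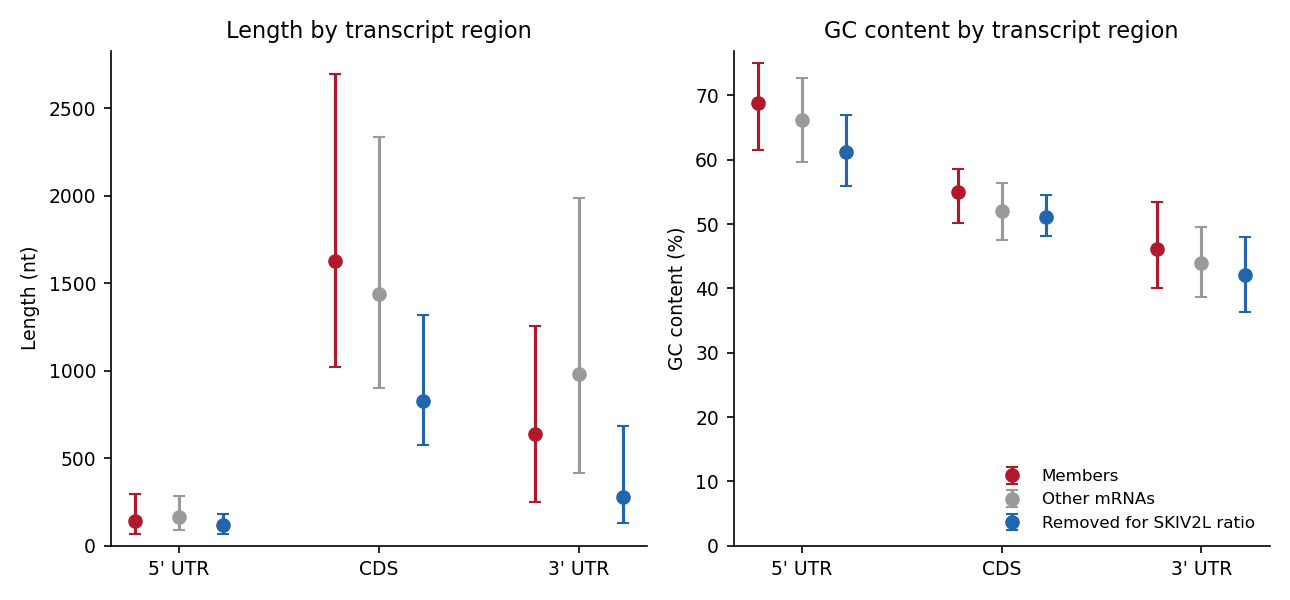
Length in nt (left) and GC content in percent (right) of the 5′ UTR, CDS and 3′ UTR of the members (red), the other mRNAs (grey) and the removed SKIV2L-bound mRNAs (blue), as median (point) and quartiles (bars). The members had the highest median GC content in each region, and their quartiles overlapped those of the other mRNAs.

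A G-quadruplex motif was searched on the sense strand as 4 runs of GGG or longer with 1 to 7 bases between runs. It stood in the 5′ UTR or CDS of 30 of the 188 matched members, 16.0% (95% Wilson interval 11.4% to 21.9%). Over all 5889 matched expressed mRNAs the share was 11.3%, and over the removed mRNAs 3.19%. In the CDS alone 12 members held it (6.38%, Wilson interval 3.69% to 10.8%), beside 3.92% of all these mRNAs, and in the 5′ UTR 18 members (9.57%), beside 7.73%. In the 3′ UTR the order was turned, with 9.04% of members beside 10.3%. With up to 12 bases between runs, 29.3% of members held the motif in the 5′ UTR or CDS (23.2% to 36.1%), beside 23.0% of all these mRNAs. Each share of the expressed mRNAs lay within the counting interval of the members, except that 11.3% fell just under the lower bound of 11.4% and 23.0% just under that of 23.2%. Over the other mRNAs the members were chosen from, the same shares were 11.5% and 23.3%, both within the members' intervals. A motif match describes letters only and shows neither a folded structure nor an AVEN site. Coding matches of up to 30 nt are printed as examples, 1 for each of the 12 members with a match in the CDS. The matches in the 5′ UTR of 18 members fit the motif as well and are not printed. The printed sequences run 5′ to 3′ on the mRNA strand, and each lies within 1 exon. The capitals mark the runs of G, and the coordinates are on GRCm38.
Piezo1 (chr8:122482455-122482484, minus strand): GGGagcaagtGGGcacaGGGGcctctGGGG
Pidd1 (chr7:141439245-141439270, minus strand): GGGGtgcccaGGGGagtGGGcaGGGG
Dgke (chr11:89050701-89050722, minus strand): GGGGacGGGactgtGGGctGGG
Prrc2a (chr17:35154540-35154563, minus strand): GGGGGGtGGGcGGGactccccGGG
Ehmt2 (chr17:34898992-34899018, plus strand): GGGaGGGGGctgatgcGGGcccGGGGG
Lrp10 (chr14:54469510-54469538, plus strand): GGGtGGGGcagtaGGGGGGcaagatGGGG
Ankrd11 (chr8:122894178-122894201, minus strand): GGGGGccGGGacaggaGGGatGGG
Hdhd5 (chr6:120531189-120531218, minus strand): GGGGctccaGGGctgcGGGccccggaGGGG
Whamm (chr7:81571642-81571663, plus strand): GGGctGGGGcctGGGacgcGGG
Zrsr2 (chrX:163936419-163936440, minus strand): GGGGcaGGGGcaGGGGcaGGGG
Rasa1 (chr13:85288686-85288710, minus strand): GGGGtccGGGttcctGGGGaccGGG
Brd2 (chr17:34117178-34117204, minus strand): GGGGaaGGGaatgcaGGGttactGGGG

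Piezo1, which encodes a mechanically gated cation channel, had the highest AVEN ratio of these, 1.08, and Brd2, a bromodomain protein that reads acetylated histones, the lowest, 0.714. In Ehmt2, Hdhd5, Whamm and Rasa1 the match lies in exon 1, in Brd2 in exon 3, and in Ehmt2 it starts at base 19 of the CDS. None of the 10 members with the highest AVEN ratio is among them.

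The libraries held between 24540658 and 34208466 counts. In mock libraries at day 0, Aven had a mean of 35.6 CPM (counts scaled to the library total) in clone 5F and of 2.32 in clone 7E. Skiv2l stood at 148 CPM in clone 5F at day 0 and at 143 in the libraries labelled day 4, and at 33.6 and 13.1 in clone 7E. Its count covers all exons, so it does not isolate the removed ones. mESC markers summed to between 3200 and 4070 CPM in all mock libraries, and feeder fibroblast markers to between 1.94 and 8.70. The 6 primitive endoderm markers (Gata4, Gata6, Sox17, Sox7, Pdgfra and Dab2) summed to between 127 and 131 in clone 5F at day 0 and to between 13.0 and 13.7 in clone 7E, and each of the 6 was lower in clone 7E.

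Mock levels are normalised counts, scaled within the mock libraries so that the median gene does not move, and all changes below are relative to that median unless the spike-ins are named. Scaled instead to the ERCC RNA added to each lysate, the median over all genes was lower by 0.17 on the log2 scale in clone 7E than in clone 5F at day 0 and by 0.07 at day 4 than at day 0 in clone 5F, and it fell by 1.11 at day 4 in clone 7E. In bulk samples, fewer cells and less RNA per cell cannot be told apart. All 200 members passed the filter on low counts in every comparison. The comparisons share their day 0 libraries, so they are not independent of each other. Groups of libraries that did not overlap were common. Between the clones at day 0 this held for 55.5% of members and 58.3% of expressed mRNAs. At day 4 against day 0 the shares were 44.0% and 47.1% in clone 5F, and 56.0% and 55.7% in clone 7E.

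At day 0, the members with the largest deficit in the Aven-/- clone 7E relative to clone 5F were Lama1, Cdkn1c, Lgmn, Htra1 and Serpinh1, and those with the largest excess were Dcaf6, Upf3a, BC005561, Plec and Rex1bd. Of the 200 members, 44 were higher and 44 lower in clone 7E (edgeR, adjusted p under 0.05), 22% in each direction. This is near the share of all 17209 genes tested, 18.1% higher and 18.1% lower, and of all expressed mRNAs, 26.4% higher and 20.2% lower. The median change of the members was -0.01. The counts were 36 and 27 without replicate 1 of each group, and with each library's own ERCC 23 members were higher and 106 lower, beside 9.15% and 36.4% of all genes.

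Lama1 had 19854, 20257 and 19187 normalised counts in clone 5F and 3882, 4113 and 3758 in clone 7E. All libraries of clone 7E lay far below those of clone 5F, a change of -2.33 ± 0.05 (log2, SE; adjusted p = 8.52e-21). Serpinh1 had 4095, 4050 and 4210 counts in clone 5F and 1618, 1755 and 1816 in clone 7E, without overlap (-1.25 ± 0.06, adjusted p = 3.45e-14). The secreted serine protease gene Htra1 gave 1525, 1601 and 1697 counts beside 647, 654 and 689 (-1.28 ± 0.06, adjusted p = 2.09e-14). The groups again did not overlap. Htra1 lies within the span of annotated Fgfr2 models, and as counting did not keep the strand, reads from overlapping genes cannot be separated. Lgmn, which encodes the lysosomal protease legumain, had 1842, 1873 and 1971 counts beside 744, 805 and 791 (-1.28 ± 0.06, adjusted p = 2.20e-14). Cdkn1c, the cell cycle inhibitor p57, had 1674, 1725 and 1651 beside 626, 695 and 692 (-1.33 ± 0.06, adjusted p = 1.41e-14). In both, every library of clone 7E was below every library of clone 5F.

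Among 6 members that encode basement membrane or secreted matrix proteins, 4 were lower and none was higher in clone 7E. Besides Lama1 and Htra1 these were the laminin chains Lama5 (-0.49 ± 0.07) and Lamc1 (-0.48 ± 0.05), whereas Hspg2, the core protein of perlecan, and Agrn, agrin, had values of 0.11 ± 0.11 and 0.10 ± 0.05 that did not pass. Of 13 members grouped as collagen folding and endoplasmic reticulum chaperones, 9 were lower and none was higher. The group also counts clusterin, a chaperone that is mostly secreted. The lower ones included the collagen prolyl hydroxylases P4ha1 (-0.89 ± 0.06) and P3h1 (-0.29 ± 0.08), the receptor chaperone Lrpap1 (-0.81 ± 0.05), clusterin (Clu, -1.11 ± 0.06) and Creld2 (-0.43 ± 0.05). Of 6 members in glycosylation and GPI anchoring, 3 were lower and none was higher. These role groups were made by hand once the members were known, and no test was run over them. Beside their counts stand 22% higher and 22% lower among all members, and 26.4% and 20.2% among expressed mRNAs. The 6 primitive endoderm markers, whose tissue makes laminin and collagen chaperones in abundance, fell with these groups by a median of 3.37 on the log2 scale. Of 5 fibroblast feeder markers the 3 tested were also lower (median -1.62), with the list summing to between 5.47 and 6.04 CPM in clone 5F and between 1.94 and 2.48 in clone 7E. Other lists differed too. Of 4 neural markers 3 were higher and 1 lower (median 0.89). Of 4 primed epiblast markers 1 was higher and 2 lower (median -0.59). Of 10 mESC markers 4 were higher and 4 lower, and of 3 mesoderm markers 1 was higher and none lower. The part of these lists in the result was not tested.

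In the other direction, Dcaf6 had 542, 544 and 556 counts in clone 5F and 1207, 1090 and 1177 in clone 7E (1.08 ± 0.06, adjusted p = 1.90e-12). Upf3a had 1145, 1204 and 1192 beside 2191, 2211 and 2191 (0.90 ± 0.05, adjusted p = 2.24e-12). Neither gene's groups overlapped. BC005561 rose by 0.87 ± 0.07, Plec, which encodes the cytoskeletal linker plectin, by 0.86 ± 0.09, and Rex1bd by 0.81 ± 0.07. Plec overlaps Parp10 in the annotation. The group counts that follow stand beside 22% of all members called in each direction. Of 8 members in DNA damage response and repair, 6 were higher and 1 lower. Among the higher ones were Acd, the shelterin protein TPP1 (0.65 ± 0.09), Pidd1, the scaffold of the PIDDosome (0.45 ± 0.07), and Rhno1 (0.29 ± 0.05). Gadd45a, a stress-induced growth arrest gene, was the lower one (-0.40 ± 0.05). Of 24 members in chromatin and transcription, 9 were higher and 2 lower. Of 17 mitochondrial members, 1 was higher, Micu3 of the calcium uniporter (0.62 ± 0.09), and 4 were lower, while Cox11 (0.06 ± 0.07) and Mrps11 (-0.16 ± 0.07) did not pass. Mrps11 and Mrpl46, both members, overlap each other at their ends.

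**Figure D3:**
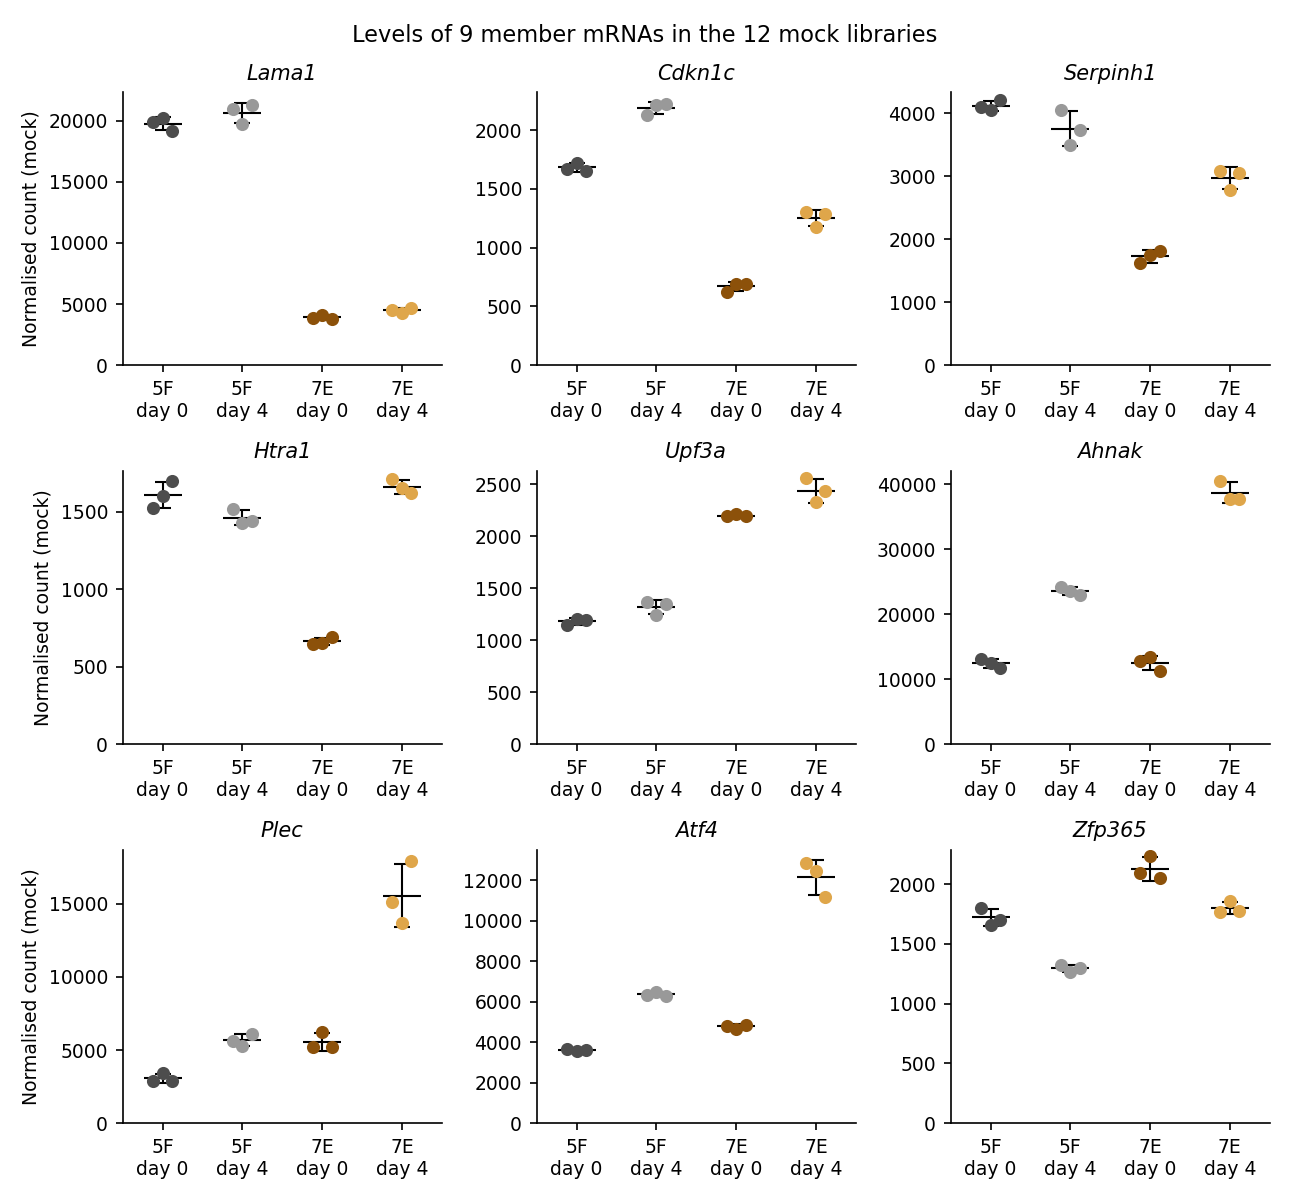
Normalised counts (y axis, linear from 0) of 9 members in the 12 mock libraries, by clone and day of 4OHT (x axis). Points are libraries, and the horizontal marks and bars give mean and SD (n = 3). Lama1, Cdkn1c, Serpinh1 and Htra1 lie lower and Upf3a lies higher in all clone 7E day 0 libraries than in all clone 5F day 0 libraries, and Ahnak, Plec and Atf4 are highest in clone 7E at day 4.

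Clone 5F was then compared between day 0 and day 4 to ask which members respond to 4OHT where AVEN is present. More members rose than fell: 51 were higher and 20 lower (25.5% and 10%), beside 12.8% and 11.6% of 16349 genes tested and 15.9% and 18.3% of expressed mRNAs. Their median change was 0.02, beside -0.02 for those mRNAs, so the shift was small. The removed SKIV2L-bound mRNAs leaned the other way, with 19 higher and 41 lower. The counts ranged from 31 to 62 higher and from 7 to 28 lower as 1 replicate number was left out, with 33 higher without replicate 1 and 31 higher and 7 lower without replicate 3, and with each library's own ERCC 27 were higher and 25 lower, beside 6.5% and 14.4% of all genes.

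Ahnak had 13073, 12540 and 11746 counts at day 0 and 24133, 23599 and 22901 at day 4. All libraries labelled day 4 lay above all of day 0 (0.92 ± 0.05, adjusted p = 9.37e-12). BC005561 rose from 922, 839 and 872 to 2021, 2249 and 1999 (1.25 ± 0.06, adjusted p = 3.38e-12), again without overlap. Plec rose by 0.89 ± 0.06, Lama5 by 0.86 ± 0.06 and Hspg2 by 0.83 ± 0.08. These transcripts are long, and across the 188 matched members the change had a Spearman correlation of 0.32 with CDS length, beside 0.29 across all 5889 matched mRNAs. For the day 4 change in clone 7E it was 0.13, beside 0.03. The correlation is across mRNAs of the same libraries and is a description. Beside 25.5% higher and 10% lower among all members, 6 of 10 members in ribosome biogenesis, translation and RNA decay rose and none fell. They included Gcn1l1, the activator of the eIF2 kinase GCN2 at stalled ribosomes (0.41 ± 0.06), and Eif4a2, an initiation helicase (0.33 ± 0.05). Atf4, the transcription factor of the integrated stress response, rose from 3650, 3578 and 3597 to 6324, 6492 and 6285 (0.82 ± 0.04, adjusted p = 1.50e-11). All libraries of day 4 were higher.

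Members that fell in clone 5F fell by less. Zfp365 had 1803, 1660 and 1704 counts at day 0 and 1326, 1264 and 1295 at day 4 (-0.41 ± 0.05, adjusted p = 1.01e-05), without overlap. The kinase gene Stk16 fell by 0.39 on the log2 scale (SE 0.06), Serac1 by 0.38 (SE 0.08), Igsf9b by 0.32 (SE 0.06) and Lgmn by 0.28 (SE 0.05). Stk16 overlaps Tuba4a and Serac1 overlaps Synj2. Of the 17 mitochondrial members 2 fell and none rose: the ATP synthase subunit Atp5e by 0.24 (SE 0.06) and the complex I subunit Ndufa2 by 0.21 (SE 0.05). Among all members 10% fell and 25.5% rose.

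In the Aven-/- clone 7E, the same treatment moved more members. At day 4, 59 were higher and 38 lower (29.5% and 19%), beside 20.7% and 19.4% of 16333 genes and 20.9% and 26.2% of expressed mRNAs. The members' median change was 0.05, beside -0.02. The amount of mRNA per ERCC differed strongly here. The ratio of mRNA to ERCC counts lay between 312 and 322 in the mock libraries of clone 7E at day 0 and between 151 and 156 at day 4, and in clone 5F between 334 and 363 and between 324 and 352. With each library's own ERCC, 194 members were lower and 5 higher in clone 7E at day 4, beside 90.1% and 1.59% of all genes. The 5 that stayed higher were Ahnak, Plec, Atf4, Htra1 and Lama5.

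Those were also the 5 with the largest rise relative to the median. Ahnak went from 12796, 13382 and 11245 counts to 40560, 37793 and 37777 (1.63 ± 0.06, adjusted p = 1.74e-16). Every library of day 4 held more than any of day 0. Plec went from 5186, 6231 and 5183 to 15110, 13652 and 17910 (1.49 ± 0.08, adjusted p = 1.05e-13). Atf4 went from 4797, 4665 and 4875 to 12855, 12448 and 11195 (1.35 ± 0.05, adjusted p = 8.24e-16). Htra1 went from 647, 654 and 689 to 1709, 1653 and 1619 (1.32 ± 0.06, adjusted p = 1.59e-14), which is close to its level in clone 5F at day 0. For none of these did the groups overlap. Lama5 rose by 1.29 ± 0.06. Per ERCC these changes were 0.54 ± 0.05 for Ahnak, 0.39 ± 0.08 for Plec, 0.25 ± 0.05 for Atf4, 0.23 ± 0.06 for Htra1 and 0.19 ± 0.07 for Lama5.

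The role groups moved with smaller steps, all given relative to the median gene, since per ERCC nearly all members were lower. Beside their counts stand 29.5% higher and 19% lower among all members. Of 10 cytoskeletal members 6 rose and 2 fell, with Tubb6, a β-tubulin, at 0.64 ± 0.05 and Rock2 at 0.51 ± 0.05. Of 10 members in ribosome biogenesis, translation and RNA decay 7 rose and none fell, the largest value being that of Gcn1l1 with 0.29 ± 0.06. Of 13 members grouped as collagen folding and endoplasmic reticulum chaperones 5 rose and 1 fell. The largest values were those of the mostly secreted Clu (1.10 ± 0.06), of Lrpap1 (0.84 ± 0.05) and of Serpinh1 (0.78 ± 0.06). Rassf1, a scaffold of the Hippo pathway, rose by 0.95 ± 0.06, and Phlda3, a target of p53 that restrains AKT, by 0.55 ± 0.05. The primitive endoderm markers did not move with them: 1 of 6 rose, none fell, and their sum lay between 13.1 and 14.0 CPM. Other marker lists did move. The 3 feeder markers tested of 5 rose (median 1.30), led by Thy1 with 1.66 ± 0.20, and Postn and Dcn stayed near 0, while the list summed to between 4.94 and 6.07 CPM at day 4. Of 10 mESC markers 9 fell (median -0.21), and of 4 neural markers 1 rose, Nes by 1.45 ± 0.05, and 2 fell. Their part in the result was not tested.

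The largest falls in clone 7E were those of Serac1, from 605, 665 and 541 to 424, 363 and 387 (-0.63 ± 0.09, adjusted p = 2.85e-06), and of Rapgef3, from 156, 131 and 154 to 106, 91.6 and 96.4 (-0.58 ± 0.13, adjusted p = 0.00105). The groups did not overlap in either. Rapgef3 overlaps 2 antisense genes. Vcpkmt, a lysine methyltransferase of the ATPase VCP, fell by 0.48 on the log2 scale (SE 0.09), Setd6 by 0.48 (SE 0.06) and the TFIIH subunit gene Gtf2h2 by 0.45 (SE 0.06). Setd6, Gtf2h2 and Ints6 belong to the 24 members in chromatin and transcription, of which 9 fell and 7 rose, beside 19% and 29.5% of all members. Of the mitochondrial members 2 fell, Atp5e by 0.29 (SE 0.05) and Ndufa2 by 0.16 (SE 0.06), and none rose.

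**Figure D4:**
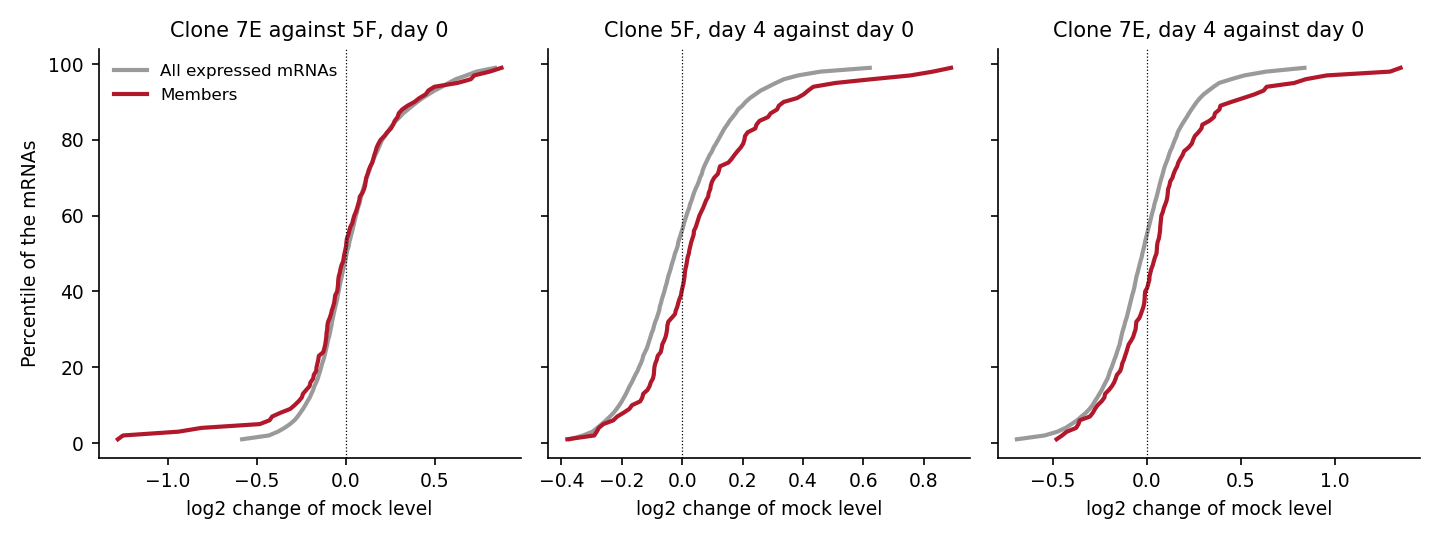
Distribution of the log2 change in mock level (x axis) for the members (red) and for all expressed mRNAs (grey), as percentiles 1 to 99 of each list (y axis), in 3 comparisons. The curves lie close to each other for clone 7E against clone 5F except in the lowest tail, and the members' curve lies to the right at day 4, by a median of 0.02 beside -0.02 in clone 5F and of 0.05 beside -0.02 in clone 7E.

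Whether the response differed between the clones was tested as an interaction over all 12 mock libraries. The day 4 change was more positive in clone 7E for 22 members and more negative for 10 (11% and 5%). These shares stand beside 6.65% and 5.29% of 17209 genes and 7.19% and 8.02% of expressed mRNAs. The counts were 15 and 3 without replicate 1, and 6 were more negative without replicate 3. With each library's own ERCC the counts were 1 and 198, beside 0.314% and 83.2% of all genes. Htra1 differed by 1.46 ± 0.08 (adjusted p = 2.19e-11) and was the member that stayed positive per ERCC, at 0.43 ± 0.09. Serpinh1 differed by 0.91 ± 0.08, Lrpap1 by 0.72 ± 0.07, Ahnak by 0.71 ± 0.08 and Clu by 0.70 ± 0.08, and all 4 turned negative per ERCC. Of 10 cytoskeletal members 5 differed upward, a count that likewise holds only relative to the median. BC005561 had the opposite sign (-0.63 ± 0.09, adjusted p = 4.54e-05), since it rose by 1.25 ± 0.06 in clone 5F and by 0.62 ± 0.06 in clone 7E. More negative changes in clone 7E were also called for Rapgef3 (-0.59 ± 0.18), Kat2b, a histone acetyltransferase (-0.36 ± 0.08), Simc1 (-0.36 ± 0.08) and Ints6, an Integrator subunit (-0.33 ± 0.06). A negative difference need not be a smaller response. Rapgef3 had 0.01 ± 0.13 in clone 5F and fell in clone 7E (-0.58 ± 0.13), whereas Simc1 rose in clone 5F (0.32 ± 0.06) and had -0.03 ± 0.07 in clone 7E. The adjusted p of Rapgef3 was 0.257 without replicate 1 and 0.189 without replicate 3, and that of Simc1 0.111 without replicate 1.

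The members kept less of their mock level under actinomycin D than the median expressed mRNA, and the clones and days gave close values. At 360 min of actinomycin D the median member had 38.8% of its mock level left in clone 5F at day 0, beside 42.6% of all expressed mRNAs and 61.8% of the removed SKIV2L-bound mRNAs. The medians of single libraries ran from 38.1% to 39.6% for the members and from 42.2% to 42.8% for all these mRNAs, without overlap. At day 4 of clone 5F the members stood at 36.1%, with libraries from 34.9% to 40.1%, beside 41.5%, with libraries from 39.9% to 41.7%, so that here the ranges touched. In clone 7E the members stood at 37.8% at day 0 and 36.5% at day 4, beside 42.4% and 41.0%, and there the library medians of the lists did not overlap. These shares use 1 spike-in factor per time point and scaling within each time point, so they do not carry differences between clones in the decay of the whole mRNA pool.

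Fitted half-lives had a median of 264 min over the members in clone 5F at day 0, 250 min at day 4, and 259 min at both days in clone 7E. Over all expressed mRNAs the medians were 296, 293, 298 and 289 min, and over the removed SKIV2L-bound mRNAs 515, 494, 470 and 380 min. In clone 5F at day 0, 14 members had a half-life under 120 min and 60 one over 360 min. The extremes were picked after their values were seen. Ccnl1, a cyclin of splicing factor kinases, had the shortest with 72.2 min (67.4 to 77.9 at 1 SE), followed by the stress-responsive kinase gene Plk3 with 75.7 min and by Zscan25 with 77.7 min. Gadd45a had 83.5 min and Atf4 99.2 min. Ehmt2, the histone methyltransferase G9a, had the longest with 2917 min, but its range at 1 SE, 1761 to 8485 min, shows that a fall this slow is hardly measured within 360 min. Cdkn1c followed with 1071 min (954 to 1220), P4ha1 with 987 min (682 to 1783) and Serpinh1 with 969 min (751 to 1367). Lama1 had 417 min in clone 5F and 416 min in clone 7E at day 0, while its level differed by 2.33 on the log2 scale.

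**Figure D5:**
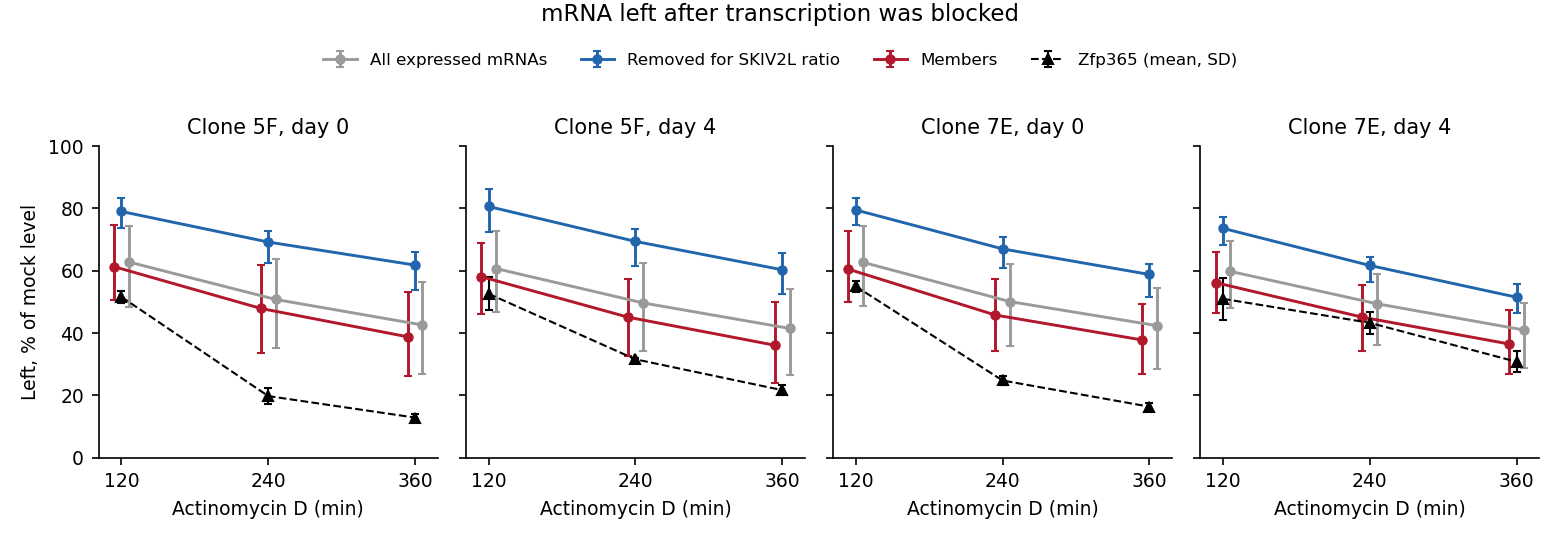
Share of the mock level left (y axis, percent) after 120, 240 and 360 min of actinomycin D (x axis, points moved sideways by up to 6 min for legibility), as median and quartiles over the members (red), all expressed mRNAs (grey) and the removed SKIV2L-bound mRNAs (blue), with Zfp365 as mean and SD of its libraries (black). The members lie slightly below the grey medians in each panel, and Zfp365 ends at 12.9%, 21.7%, 16.4% and 30.8% from left to right.

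Changes in decay were tested as differences of slope, where a positive value is slower decay. Between clone 7E and clone 5F at day 0 no member passed, and 0.0322% and 0.00537% of 18623 genes were called slower and faster in clone 7E (0.0946% and 0.0158% of expressed mRNAs). Before adjustment 5 members had a p under 0.05, and DESeq2 also called 0 members, beside 0.0752% and 0.0698% of all genes. In clone 5F at day 4 no member passed either, beside 0.134% and 0.0614% of 17901 genes and 0.268% and 0.142% of expressed mRNAs, with 4 members at an unadjusted p under 0.05. DESeq2 called 1 member slower, beside 0.095% slower and 0.151% faster of all genes. The difference between the clones of the day 4 change gave 0 calls among members and among all genes, with 1 member at an unadjusted p under 0.05, and DESeq2 called 0 members, beside 0.0107% of all genes in each direction. The median difference of slope over the members lay between -0.01 and 0.01 log2 per hour in each comparison.

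In clone 7E, 1 member decayed more slowly at day 4 and none faster (0.408% and 0.488% of 17417 genes, 0.567% and 0.883% of expressed mRNAs), with 16 members at an unadjusted p under 0.05. DESeq2 called 1 slower and 2 faster, beside 0.563% and 0.97% of all genes. The edgeR call was Zfp365 (chromosome 10, 67886103 to 67912662), with an AVEN ratio of 0.710. At 360 min it had 16.4% ± 1.28 of its mock level left at day 0 and 30.8% ± 3.37 at day 4 (SD, n = 3 libraries each). The lowest library of day 4, 27.0%, lay above the highest of day 0, 17.2%. The slope differed by 0.18 ± 0.03 log2 per hour (edgeR, adjusted p = 0.0027), with fitted half-lives of 134 min (day 0) and 225 min (day 4). In clone 5F it had 12.9% ± 1.11 left at day 0 and 21.7% ± 1.55 at day 4, also without overlap, with half-lives of 118 and 164 min (0.14 ± 0.03, adjusted p = 0.0653). The difference between the clones, 0.04 ± 0.04, did not pass (adjusted p = 1). With any replicate number left out the adjusted p in clone 7E was between 0.0517 and 0.15, so this call needs all libraries. Its mock level fell meanwhile in both clones, by 0.41 and 0.24 on the log2 scale.

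The members next in order of p in clone 7E did not pass the test. Lgmn had half-lives of 1484 min at day 0 and 489 min at day 4 (slope difference -0.08 ± 0.02, adjusted p = 0.0996), and the lysosomal protease gene Ctsl a slope difference of -0.07 ± 0.02 (adjusted p = 0.0779). Atf4, whose level rose by 1.35 in clone 7E, had half-lives of 119 and 120 min there and 99.2 and 96.0 min in clone 5F. Ahnak had 203 and 181 min in clone 7E and 210 and 176 min in clone 5F. For neither was a difference of slope called. Compared as change from mock to 360 min with time points as levels, a setting added after the data were seen, 10 members decayed more slowly and 3 faster in clone 7E at day 4, beside 2.92% and 2.41% of all genes. In clone 5F at day 4 it gave 2 and 0, beside 0.419% and 0.218%, between the clones at day 0 it gave 4 and 2, beside 1.63% and 0.381%, and for the difference between clones 0 and 0, beside 0.0161% and 0.0591%. With TMM scaling and slopes, 3 members were slower in clone 7E at day 4 and none faster, beside 0.769% and 0.586% of all genes, and 1 was slower in clone 5F, beside 0.223% and 0.0559%. No member was called under TMM between the clones at day 0, beside 0.129% and 0.0215%, or for the difference between clones, where no gene was called.

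Across the members, the AVEN ratio had a Spearman correlation of -0.04 with the change between clones, 0.03 with the day 4 change in clone 5F and 0.00 with that in clone 7E. Across the 6096 mRNAs the members were chosen from, these were 0.00, 0.17 and 0.14. For the slope differences in the same order the values were -0.06, -0.08 and -0.07 over the members and -0.12, -0.10 and 0.03 over the 6096 mRNAs. Members were chosen by the AVEN ratio, from 0.706 upward, and its quartiles over them were 0.748 and 0.948. Values within the members therefore cover only the upper end of this ratio. They are not comparable with those over the 6096 mRNAs. The points share their libraries, and no p is given.

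Families by symbol gave a similar picture of small changes. The 6 members of the respiratory chain and ATP synthase (Atp5e, Ndufa2, Ndufs6 and Ndufaf5 among them) had no higher call in any comparison, and the 4 of the mitochondrial ribosome (Mrpl9, Mrpl46, Mrps11 and Mrps26) had 2 lower calls, Mrps26 (-0.21 ± 0.07) and Mrpl9 (-0.15 ± 0.05), both between the clones at day 0. Of 5 kinases of the MAP and LKB1 routes, Map2k2, the MAP kinase kinase MEK2, rose at day 4 in clone 5F (0.22 ± 0.07) and clone 7E (0.29 ± 0.06), and Mapkapk2 in clone 7E (0.26 ± 0.05).

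The proteins around AVEN were followed through a list of 28 genes of the Ski complex, the exosome, XRN1, ribosome rescue and helicases of structured RNA. Of these 27 were tested, and Exosc6 was listed at 0. In clone 7E against clone 5F at day 0, 7 were higher and 7 lower, led by Aven (-3.90 ± 0.11), beside 26.4% and 20.2% of expressed mRNAs. Skiv2l was also lower there (-2.10 ± 0.06), and its day 4 change was -0.01 ± 0.05 in clone 5F and -1.32 ± 0.07 in clone 7E. At day 4, 4 were higher and 7 lower in clone 5F, beside 15.9% and 18.3% of expressed mRNAs. In clone 7E the counts were 4 and 9, beside 20.9% and 26.2%. In decay, 1 was called faster, Aven itself in clone 7E against clone 5F at day 0, the 1 faster call among 18623 genes (0.00537%). Aven stood at 2.32 CPM in this Aven-/- clone, beside 35.6, so its slope there rests on few remaining counts. The exosome subunit gene Exosc4 was the 1 gene of this list among the members, with an AVEN ratio of 0.722. It had 1157, 1360 and 1349 counts in clone 5F and 1064, 1200 and 1209 in clone 7E at day 0, overlapping groups (-0.16 ± 0.07, adjusted p = 0.0744), and its half-lives ran from 160 to 184 min. Exosc4 overlaps Oplah in the annotation.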

How the data were processed

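RNA was sequenced by the authors from mESCs after ribosomal RNA depletion, with ERCC spike-ins in the lysis buffer. The authors mapped reads to mm10 with STAR 2.5.0a and deposited raw counts per gene for 47 libraries. The deposited binding table holds ratios made by the authors from pooled CRAC counts (Bowtie2 2.3.4.1) and RPKM values from RNA-seq of the tagged lines. Its columns of fold changes and p-values were not used. Each count column was matched to its sample by its heading, the number that opens the sample title, with 0 sample columns unused. The binding columns are pooled over libraries.

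Libraries of a time point were scaled to each other by DESeq2 1.42.0 size factors, and time points by 1 spike-in factor each, from 34 of 92 listed ERCC sequences (mean over 50 counts): 1, 0.649, 0.531 and 0.438. Genes were filtered by filterByExpr and tested by edgeR 4.0.16 (R 4.3.3), quasi-likelihood test, with Benjamini-Hochberg adjustment over all genes tested and a threshold of 0.05. Decay was the slope over hours. Half-lives came from ln(normalised count + 1) on time. Symbols came from Gencode M21, and coordinates and motifs from GRCm38. Scripts were tested on simulated data. No pair of replicate libraries agreed within sampling noise. Wilson intervals cover counting error only.

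Of all members, 127 overlap another annotated gene and 66 another coding gene, and counts did not use the strand. Members, lists and tests were chosen with earlier results of these data known. Named are the 10 highest AVEN ratios, up to 3 mRNAs on either side of the threshold, per comparison and direction the 5 largest called changes whose mean count reached 100 and whose sign held without each replicate, up to 4 per symbol family, and the pathway list. Others named as examples of a role group were picked after their values were seen. A few items that this rule would name are not reported here.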

Additional observations from a re-analysis of the deposited data

Results flagged for a closer look

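The response to 4OHT differed between the clones, by a test of the difference itself. The change was more positive in clone 7E than in clone 5F for 22 members and more negative for 10 (11% and 5%). Beside these stand 6.65% and 5.29% of all genes tested and 7.19% and 8.02% of expressed mRNAs. Among them the differences (log2, edgeR, adjusted p under 0.05) were 1.46 for Htra1, 0.91 for Serpinh1, 0.72 for Lrpap1, 0.71 for Ahnak and 0.70 for Clu, and -0.63 for BC005561, -0.59 for Rapgef3, -0.36 for Kat2b, -0.36 for Simc1 and -0.33 for Ints6. Each is relative to the median gene, and mRNA per ERCC differed between the clones at day 4. With 1 replicate number left out, the edgeR adjusted p reached 0.257 for Rapgef3 and 0.111 for Simc1, so these 2 calls need all libraries.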

How the results depend on the processing

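Scaled to each library's own ERCC, 23 members were called higher and 106 lower between the clones at day 0, beside 9.15% and 36.4% of all genes. At day 4 the counts were 27 and 25 in clone 5F, beside 6.5% and 14.4%, and 5 and 194 in clone 7E, beside 1.59% and 90.1%. For the difference between clones they were 1 and 198, beside 0.314% and 83.2%. In that difference Serpinh1 (-0.12), Lrpap1 (-0.31), Ahnak (-0.31) and Clu (-0.32) reversed. The median half-life in clone 7E at day 4 was then 287 min. In decay, time points as levels gave 4 slower and 2 faster members between the clones, beside 1.63% and 0.381% of all genes. At day 4 it gave 2 slower in clone 5F, beside 0.419%, and 10 slower and 3 faster in clone 7E, beside 2.92% and 2.41%. TMM gave 1 slower in clone 5F (0.223% of all genes) and 3 slower in clone 7E (0.769%). DESeq2 gave 1 slower in clone 5F (0.095%) and 2 faster in clone 7E (0.97%). With an RPKM of at least 10 the median half-lives were 270 min (clone 5F, day 4) and 268 min in clone 7E at both days. With 1 to 12 bases between runs, 29.3% of members held the motif, beside 23.0% of expressed mRNAs. The causes were not tested.

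Without 1 replicate number, members called higher and lower ranged from 36 to 49 and 27 to 38 between the clones. At day 4 they ranged from 31 to 62 and 7 to 28 in clone 5F and from 43 to 62 and 26 to 37 in clone 7E. For the difference they ranged from 15 to 22 and 3 to 7. In the same order, all genes called ranged from 2107 to 2720 and 1982 to 2609, and from 1094 to 2248 and 762 to 2151. The last 2 ranges were 2379 to 3152 and 1941 to 2797, and 473 to 826 and 280 to 620. The slower call in clone 7E went to 0 each time. Median half-lives ranged from 254 to 277 min and 249 to 269 min in clone 5F, and 252 to 267 min and 253 to 266 min in clone 7E, at days 0 and 4. DESeq2 gave an adjusted p of 0.054 for Rapgef3.

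Replicate numbers did not pair libraries: deviations of same-numbered libraries had a median correlation of -0.0462 over all groups. With a replicate block, 46 and 43 members were higher and lower between the clones, 42 and 16 at day 4 in clone 5F, 54 and 33 in clone 7E and 21 and 9 for the difference, and in decay 1 was slower in clone 7E; no count moved by over 1.5 times. Removal by the RNA-normalized SKIV2L ratio, no filter on low counts and a pseudocount of 0.5 moved no count or median beyond its margin.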
